A study of Drosophila melanogaster with 2 samples.

Results

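The small subunit ribosomal protein genes are the 38 protein-coding genes of Drosophila melanogaster whose symbol begins with RpS and a digit, of 13968 protein-coding genes in Ensembl's BDGP6 annotation. A gene was counted as having a peak where its start site was the nearest protein-coding one to the summit of a peak in the conservative list made from both replicates. By that rule 15 of the 38 genes had a peak, 39.5%, beside 15.8% of all protein-coding genes. The protein targeted was Apterous, a LIM homeodomain transcription factor known for specifying dorsal wing identity and for roles in muscle and neuron fates. Peaks came from ChIP-seq with an antibody against GFP in embryos of 0 to 24 h from transgenic flies with a fusion of ap to eGFP. There was 1 group with 2 biological replicates and no second genotype, and no control immunoprecipitation was analysed here. Whole embryos mix every cell type, so a peak cannot be assigned to cells that express ap. All positions are on dm6.

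Each ribosome pairs a small subunit, which binds the mRNA and reads its codons, with a large subunit, which joins the amino acids. The small subunit proteins fold around its ribosomal RNA into a head, a beak, a body and a platform. The proteins are needed in equal numbers, and their genes are among the most strongly expressed in growing tissue. Flies that lose 1 copy of many of these genes show the Minute phenotype of slow development and short bristles. Fly ribosomal protein genes commonly start transcription within a run of pyrimidines, the pyrimidine initiator, in place of the standard initiator. Several also carry the DNA replication-related element (DRE), the site of the factor Dref.

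The 3 strongest member peaks and RpS19a are shown first, because these 4 hold a common stretch of letters close to a start site. The stretch was found by comparing the 100 bp on either side of every member summit after the sequences had been seen, so it is a description without a test. All sequences are reference letters from RefSeq's release 6 assembly, 5′ to 3′ on the gene's strand, and the capitals mark the shared stretch. Whole peaks are given for RpS27 (chr3R:25247425-25247601, minus strand, start site at base 88), RpS21 (chr2L:2856005-2856135, plus strand, start site at base 66) and RpS28b (chrX:9554512-9554631, plus strand, start site at base 112). For RpS19a, 100 bases around the start are given (chrX:16637834-16637933, plus strand, start site at base 61).
RpS27: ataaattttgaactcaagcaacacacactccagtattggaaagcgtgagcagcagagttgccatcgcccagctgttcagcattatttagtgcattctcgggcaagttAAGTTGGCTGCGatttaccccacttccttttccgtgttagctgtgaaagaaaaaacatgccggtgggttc
RpS21: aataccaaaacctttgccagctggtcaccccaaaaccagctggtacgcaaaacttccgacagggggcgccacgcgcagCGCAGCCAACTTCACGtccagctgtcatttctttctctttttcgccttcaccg
RpS28b: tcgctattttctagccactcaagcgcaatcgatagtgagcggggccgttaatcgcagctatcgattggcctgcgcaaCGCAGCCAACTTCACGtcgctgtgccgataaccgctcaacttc
RpS19a: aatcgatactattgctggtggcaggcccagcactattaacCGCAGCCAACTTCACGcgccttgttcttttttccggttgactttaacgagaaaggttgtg
The 16 bases in capitals at RpS21, RpS28b and RpS19a are identical and lie on the same strand as the gene in all 3. They occur 4 times on the assembled chromosomes, and the middle of the fourth copy is 14 bp from a start of CG5180, which had no conservative peak there. RpS27 holds the first 12 of those bases on the opposite strand, downstream of the start site given above. These 12 bases occur 48 times, 16 of them no more than 100 bp from a protein-coding start. A conservative peak covered 9 of the 48, among them the peaks at 2 large subunit genes, RpL28 (signal 180.5) and RpL27A (signal 109.7), and at Kap-alpha3, an importin gene (signal 175). The stretch lay in 19 of 13968 promoters (0.136%), taken as 250 bp before to 50 bp after the start, of which 4 were small subunit genes and 2 large subunit genes.

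The 4 member peaks with a DRE within 50 bp of the summit are shown because this was the motif found at most member summits among the 7 searched there on both strands. The letters searched were TATCGATA, which read the same on both strands, and the capitals mark them. Each window holds 60 bases before the start and 40 from it, so the start site is base 61. The windows are chr3R:30208981-30209080 (RpS7, minus strand), chrX:13337666-13337765 (RpS15Aa, minus strand), chr3R:11216248-11216347 (RpS25, minus strand) and chr3L:13023292-13023391 (RpS12, plus strand).
RpS7: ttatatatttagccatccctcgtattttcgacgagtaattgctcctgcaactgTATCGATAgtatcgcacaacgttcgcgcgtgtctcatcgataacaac
RpS15Aa: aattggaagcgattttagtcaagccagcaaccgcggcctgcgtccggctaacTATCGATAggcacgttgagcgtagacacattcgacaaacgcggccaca
RpS25: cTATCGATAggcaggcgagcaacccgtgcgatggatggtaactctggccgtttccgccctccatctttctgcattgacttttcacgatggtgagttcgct
RpS12: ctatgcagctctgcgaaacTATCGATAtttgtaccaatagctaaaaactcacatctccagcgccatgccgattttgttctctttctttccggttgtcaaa
A DRE lay within 50 bp of the summit at 4 of 15 member peaks (26.7%). The same was true of 6 of 35 peaks at large subunit genes (17.1%) and of 26 of 1250 conservative peaks with the summit within 500 bp of any start site (2.08%), called promoter peaks from here on.

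Pyrimidine initiators are shown for RpS5a, which had a peak, and for RpS3, RpS3A and RpS5b, which had none. The windows are chrX:17148225-17148324 (RpS5a, minus strand), chr3R:23358752-23358851 (RpS3, plus strand), chr4:67168-67267 (RpS3A, minus strand) and chr3R:14901524-14901623 (RpS5b, minus strand). The start site is again base 61, and the search was for CCTTT or TCTTT on the gene's strand. Capitals mark the first copy near the start, and further copies in the windows are left in lower case.
RpS5a: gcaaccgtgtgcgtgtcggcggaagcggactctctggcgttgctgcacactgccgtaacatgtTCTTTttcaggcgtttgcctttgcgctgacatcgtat
RpS3: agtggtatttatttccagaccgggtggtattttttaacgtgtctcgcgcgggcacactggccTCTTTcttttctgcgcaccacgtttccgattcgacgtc
RpS3A: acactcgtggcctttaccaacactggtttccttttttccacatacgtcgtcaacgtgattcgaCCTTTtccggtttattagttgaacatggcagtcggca
RpS5b: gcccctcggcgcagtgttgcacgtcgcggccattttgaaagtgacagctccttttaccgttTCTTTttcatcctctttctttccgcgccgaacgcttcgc
Either form lay within 10 bp of the main start, the one most transcripts share, in 5 of 15 genes with a peak and 12 of 23 without. That is 17 of 38 genes in all (44.7%), beside 31 of 54 large subunit genes (57.4%) and 3.19% of all protein-coding genes. The window of 10 bp was chosen after the wider one had been seen. The initiator was thus common to genes of both kinds, with a peak and without.

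Each of the 15 genes had 1 conservative peak. The signal is the authors' value for the height of a peak, in arbitrary units, and is used here to rank peaks within a list. A replicate's signal is that of its own strongest ranked peak overlapping the conservative one, and the pooled signal comes from both replicates' reads together. No read totals were given, so depth is unknown and the 2 replicates' signals are not on a known common scale. The SD of 2 replicates given below thus also holds any difference in scale between them. The median pooled signal of the member peaks was 131, beside 108 for the 35 large subunit peaks and 109.7 for the 1250 promoter peaks. The irreproducible discovery rate (IDR), which is low where a peak ranks alike in both replicates, was at most 0.0020 at the member peaks, against a highest value of 0.00999 in the whole list.

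**Figure D1:**
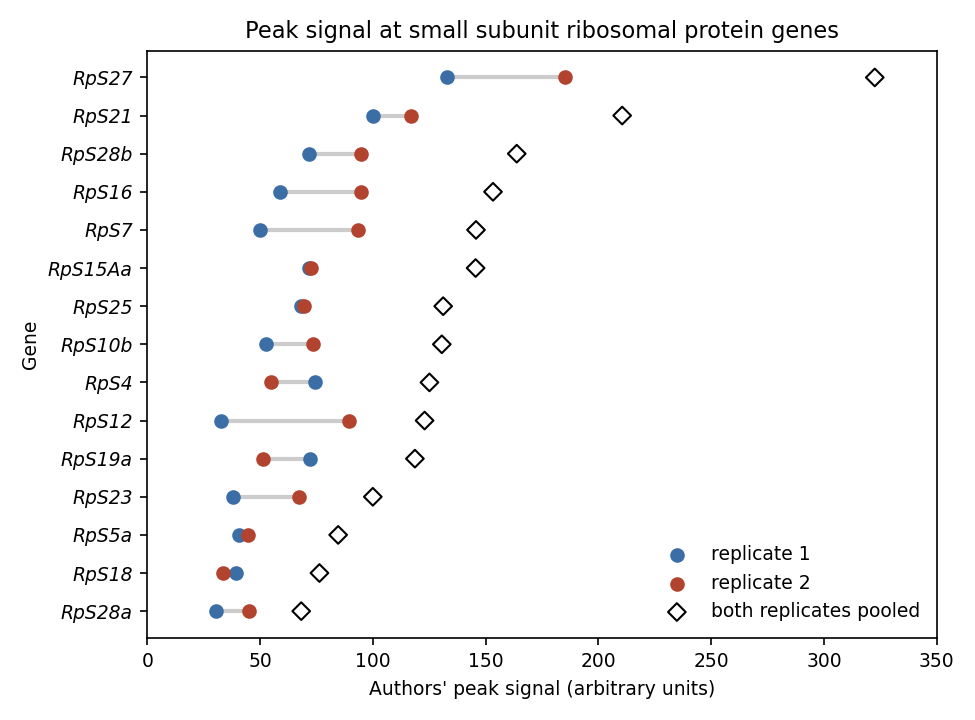
Authors' peak signal (x axis, arbitrary units) at the 15 small subunit genes with a conservative peak, ordered by pooled signal from top to bottom; filled points are the 2 replicates and diamonds the replicates pooled. RpS27 and RpS21 stand highest in both replicates, and RpS12 has the widest gap between replicates, 32.6 and 89.4.

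Proteins of the body and platform include 6 with a peak. RpS27, a zinc-binding protein of the platform, had the highest signal of all members, 133 in replicate 1 and 185 in replicate 2 (159 ± 36.9, SD, n = 2). Its peak ranked 176 of 3184 conservative peaks, with the summit in the interval between RpS27 and Nup37, 5 bp upstream of the RpS27 start and 139 bp from the Nup37 start. RpS21, known in flies as a gene whose loss makes the blood-forming organs overgrow, followed with 99.8 and 117 (108 ± 12, SD, n = 2), rank 417. Both genes stood above every other member in each replicate. RpS7, a body protein, had 49.8 in replicate 1 and 93.5 in replicate 2 (71.6 ± 30.9, SD, n = 2), with the summit in its 5′ UTR, 19 bp downstream of the start. RpS15Aa, another body protein, had 71.7 and 72.5 (72.1 ± 0.540, SD, n = 2), 23 bp downstream in the 5′ UTR. As a ratio of replicate 2 to replicate 1, RpS7 differed most and RpS15Aa least of these 4 (log2 0.91 and 0.02). RpS4, a body protein near the mRNA entry, had 74.4 and 54.8 (64.6 ± 13.9, SD, n = 2), and RpS23, which lines the decoding centre, had 38.0 and 67.1 (52.5 ± 20.6, SD, n = 2). The RpS4 summit was 32 bp upstream of the start and that of RpS23 23 bp downstream, in the 5′ UTR. RpS23 was in the thresholded list of replicate 2 but not in that of replicate 1.

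Proteins of the head and beak make up the other 9 genes with a peak. RpS28b, near the mRNA exit, had 71.9 in replicate 1 and 94.9 in replicate 2 (83.4 ± 16.3, SD, n = 2), the summit lying 38 bp upstream of the start. RpS16, whose tail reaches the tRNA in the peptidyl site, had 58.7 and 94.6 (76.6 ± 25.4, SD, n = 2). Its summit lay 41 bp upstream of an internal start at position 22606127 on 2R, inside the 5′ UTR of the longer transcripts that begin at 22605745. This peak thus lay inside the gene, away from its outer end. RpS25, known for its part in translation from internal ribosome entry sites, had 68.0 and 69.3 (68.6 ± 0.920, SD, n = 2), 41 bp upstream. RpS10b, on the beak side of the head, had 52.5 and 73.6 (63.0 ± 14.9, SD, n = 2), 2 bp upstream. These 4 were in the thresholded lists of both replicates.

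RpS12, which in flies takes part in the competition that removes Minute cells, had 32.6 in replicate 1 and 89.4 in replicate 2 (61.0 ± 40.2, SD, n = 2), with the summit 44 bp upstream. This was the one member peak that differed more than 2-fold between replicates, by 1.46 on the log2 scale. RpS19a, whose human counterpart is mutated in Diamond-Blackfan anemia, had 72 and 51.3 (61.6 ± 14.6, SD, n = 2), 6 bp upstream. RpS5a, at the mRNA exit, had 40.4 and 44.8 (42.6 ± 3.08, SD, n = 2). Its summit was 88 bp upstream of the start, the farthest of the 15. RpS18, which contacts the large subunit, had 39.2 and 33.6 (36.4 ± 3.92, SD, n = 2), 44 bp upstream. RpS28a, a second copy of RpS28, had 30.5 and 45.0 (37.7 ± 10.2, SD, n = 2), 21 bp upstream. RpS18 and RpS28a, the lowest by pooled signal (76.3 and 68.2), were in neither replicate's thresholded list, while their ranks repeated well enough to enter the conservative one.

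Replicate 2 was higher at 12 of 15 member peaks, with RpS4, RpS19a and RpS18 the exceptions. The median log2 ratio of replicate 2 to replicate 1 was 0.40 at member peaks, 0.07 at the 35 large subunit peaks and 0.03 at all 3184 conservative peaks. After subtraction of that last value the member median was 0.37. With 2 replicates the ratio was not tested, and the SD of the 15 ratios was 0.53.

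The genes were also counted in each replicate's own thresholded list. In replicate 1's own thresholded list 12 of 38 genes were nearest to a peak (31.6%), beside 11.0% of all genes, and in replicate 2's 15 of 38 (39.5%), beside 12.2%. Of the 15 conservative peaks, 11 overlapped a thresholded peak of both replicates, 2 one of replicate 2 alone (RpS23 and RpS5a), and 2 neither. Over all 3184 conservative peaks, 48.1% overlapped one of both replicates and 27.9% of neither. The less strict list from both replicates also gave 15 genes, beside 16.4% of all genes, but with RpS26 in and RpS28a out. When a gene was counted by any conservative summit within 500 bp of its start, whichever gene was nearest, 16 genes had a peak (42.1%), beside 11.8% of all genes. The added gene was RpS20.

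Other genes entered through 1 replicate or list only. RpS27A, which encodes ubiquitin joined to a small subunit protein, had a peak in replicate 1's list (signal 41.8, 20 bp upstream) and no peak in the pooled ranked list. It shares its start position with Ip259, so the nearest gene there is a matter of convention. RpS14b had a peak in replicate 2's list (37.4, 41 bp upstream), and so did RpS20 (80.7, 160 bp upstream). RpS26, of the mRNA exit, had a peak of signal 12.4 in the less strict list, 334 bp upstream.

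**Figure D2:**
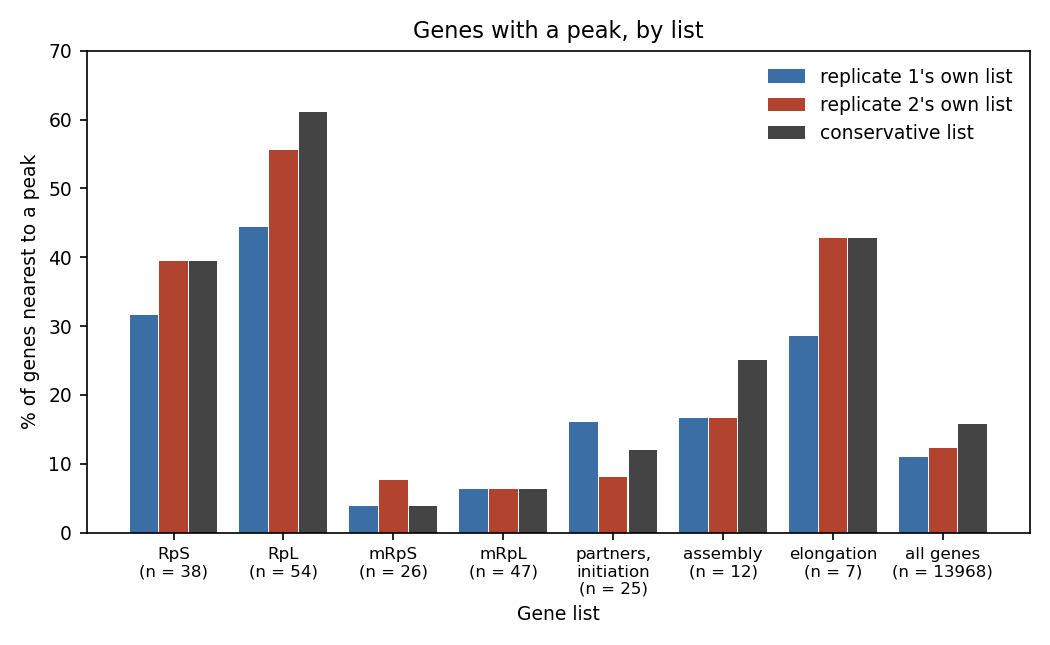
Share of genes whose start is nearest to a peak (y axis, percent) for 7 gene lists and all protein-coding genes (x axis, number of genes in brackets), in each replicate's own thresholded list and in the conservative list; values are counts and carry no error bars. Small subunit genes stand at 31.6% to 39.5%, below the large subunit genes (44.4% to 61.1%) and above all genes (11.0% to 15.8%).

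The summits clustered at the start site. The median distance from summit to start was 23 bp at the 15 member peaks, 36 bp at the large subunit peaks and 140 bp at the promoter peaks. Within 50 bp of a start lay 14 of 15 member summits (93.3%), 23 of 35 large subunit summits (65.7%) and 152 of 1250 promoter summits (12.2%). Those 14 member summits are among the 152. The summit was upstream of the start in 11 and downstream in 4 (RpS21, RpS7, RpS15Aa and RpS23), and 83.3% of promoter summits were upstream. Peaks were mostly 296 bp wide (12 of 15), so the position of a summit is not resolved to single bases.

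**Figure D3:**
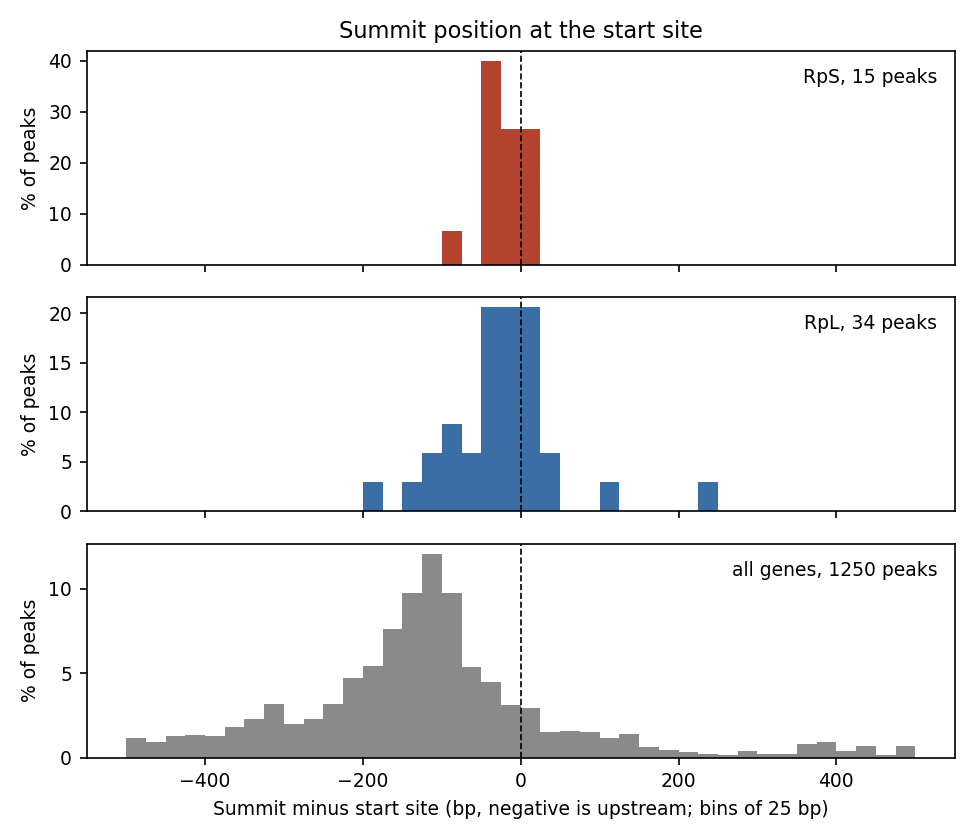
Position of the peak summit relative to the nearest protein-coding start site (x axis, bp, negative upstream) as a percent of peaks in bins of 25 bp (y axis), for small subunit genes, large subunit genes and all conservative peaks within 500 bp of a start. The 15 small subunit summits lie from 88 bp upstream to 23 bp downstream, while the median distance of all 1250 peaks is 140 bp.

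The member summits were richer in G and C, by median, than the summits of other peaks. Within 50 bp of the summit the member peaks had a median GC content of 51.5% (40.6% to 59.4%), the large subunit peaks 45.5%, 138 other conservative peaks with the summit within 50 bp of a start 43.6%, and promoter peaks 30.7%. The third of these comparisons was added after the data had been seen. Its 138 peaks include the 23 large subunit peaks with the summit within 50 bp of a start. Within 50 bp of the main start, GC content had a median of 49.5% in genes with a peak, 43.6% in genes without and 43.6% in all protein-coding genes. For RpS16 this window does not hold the summit of its peak. The part of base composition in the presence of a peak was not tested.

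The 23 genes without a conservative peak were looked up in the pooled ranked list, which keeps candidates down to very low signal. There 18 of the 23 (78.3%) had a peak within 500 bp of a start, close to the 76.2% of all protein-coding genes. The strongest per gene had a median of 30.4, against 131 for the 15 genes with a peak, a difference that the choice of the groups fixes. Over listed genes only, the median was 59.0 for small subunit genes (33 of 38 listed) and 83.1 for large subunit genes (50 of 54 listed). It was 32.7 for mitochondrial small subunit genes (18 of 26 listed) and 26.4 for all protein-coding genes (10640 of 13968 listed). In replicate 1's ranked list the median of listed small subunit genes (38.6, 28 of 38 listed) was below that of large subunit genes (51.6, 44 of 54). In replicate 2's the 2 medians were nearly equal, 44.8 (29 of 38 listed) and 44.6 (48 of 54). In both replicates a larger share of the small subunit genes was unlisted, so these medians do not compare all the genes. A gene absent from the list may still have had signal, since the list holds only peaks matched between read sets.

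**Figure D4:**
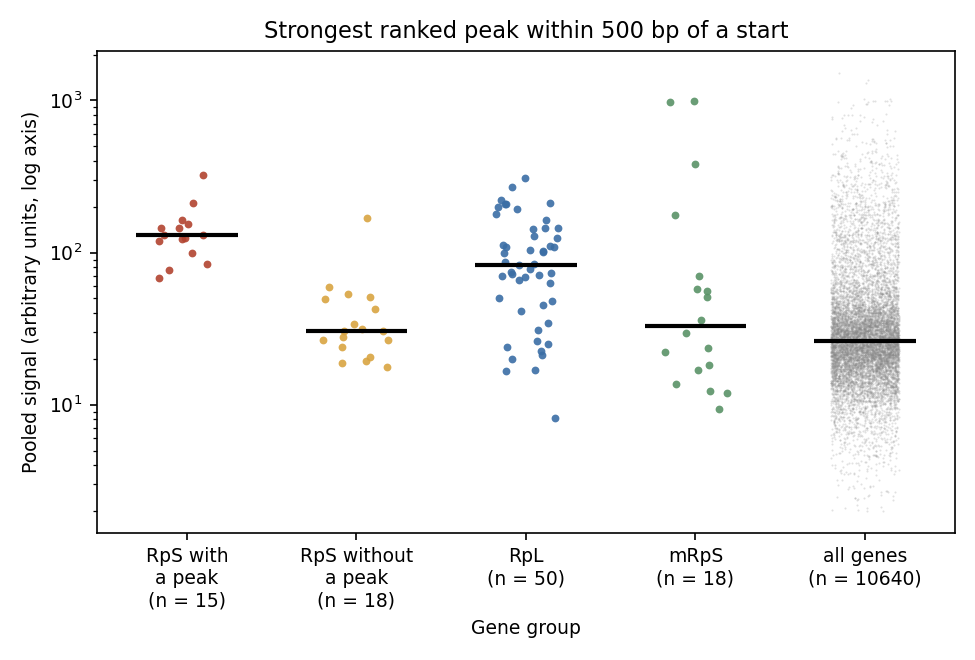
Pooled signal of the strongest ranked peak within 500 bp of a gene's start (y axis, arbitrary units, log axis) for genes listed there; each point is a gene and the bar is the median. Small subunit genes with a peak have a median of 131 and those without 30.4, with RpS20 the single point at 169 among those without.

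Among the head and beak proteins without a peak, RpS20 stood apart at 169. That peak lies at 20821829 to 20822124 on 3R, 204 bp upstream of RpS20 and 129 bp from the start of CG17271, to which it was assigned in the conservative list. The replicate 2 peak there was nearest to RpS20. Its replicates had 91.4 and 80.7 (86.1 ± 7.57, SD, n = 2). RpS29, a zinc-binding head protein, had 59.0 with an IDR of 0.0677 and was the highest of those with no conservative peak nearby. By IDR, the members closest to the threshold were RpS28a inside the list (0.0020, signal 68.2) and RpS6 outside it (0.0149, signal 53.4), and the highest IDR in the list was 0.00999. Lower values were listed for RpS15 (31.4), RpS10a (30.4), RpS28-like (27.9), RpS3 at the mRNA entry (24.1) and RpS5b (17.7). Of these, RpS3 and RpS5b were below the median of all listed protein-coding genes, 26.4. RpS19b and RpS27A had no pooled ranked peak within 500 bp.

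Among the body and platform proteins without a peak, RpS6, the substrate of S6 kinase, had the highest signal, 53.4. RpS14b had 50.8 and RpS26 42.8. RpS30, made as a fusion with a ubiquitin-like protein, had 33.7, and RpS15Ab had 30.5. RpS14a (20.7), RpS2 (19.4) and RpS9 (18.8) were below the median of all listed genes. RpS13, RpS24 and RpS3A were not listed. RpS3A is the single member on chromosome 4.

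Several members are pairs of gene copies, with more or less alike coding sequence, whose promoters can be set side by side. RpS15Aa and RpS15Ab are 98.2% identical over the aligned coding sequence, yet had promoter signals of 146 and 30.5. RpS10b and RpS10a (74.0% identical) had 131 and 30.4, and RpS5a and RpS5b (78.0%) had 84.6 and 17.7. RpS19a had 119 while RpS19b (66.7%) was not listed. RpS5b and RpS19b are known as the copies enriched in the germline. RpS28b and RpS28a (76.9%) both had a peak, at 164 and 68.2, and RpS28-like (49.1% identical to RpS28b and 53.9% to RpS28a) had 27.9. RpS14a and RpS14b (97.8%) lie next to each other on X and neither had a peak, at 20.7 and 50.8. The longest identical run between the promoters of a pair was 8 to 11 bp. With 1 value per gene these differences have no test.

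Most of these genes are short and closely spaced. The median length was 1532 bp in genes with a peak, 1176 bp in genes without and 2165 bp in all protein-coding genes. The stretch of genome nearest to their starts had a median of 1883 bp, against 4253 bp for all genes, so a peak anywhere had less room to be assigned to a small subunit gene. Another protein-coding gene started within 500 bp in 7 of 15 genes with a peak and 8 of 23 without. For those with a peak the nearest such neighbours were Nup37 (RpS27), CG3104 (RpS21), CG4294 (RpS16), CG4820 (RpS25), plu (RpS18), Rok (RpS19a), and Axn with Mgat2 (RpS28a). For those without they included CSN8 (RpS13), Dhdds (RpS14a), Lsm10 (RpS15Ab), CG5854 (RpS19b), CG17271 (RpS20) and Ip259 (RpS27A). In these cases a peak between the starts cannot be given to 1 gene with certainty. How often all protein-coding genes have so close a neighbour is not given here.

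By chromosome, the genes with a peak were 5 of 8 on X (18.2% of all genes there), 4 of 12 on 3R (14.8%), 3 of 7 on 2R (14.3%), 2 of 4 on 3L (17.6%), 1 of 6 on 2L (15.1%) and 0 of 1 on 4 (2.5%). Introns of small subunit genes can host small nucleolar RNAs, which guide the modification of ribosomal RNA. Such hosts were 5 of 15 genes with a peak, with 31 snoRNAs between them, and 7 of 23 without, with 10. RpS5a alone hosted 14, RpS7 7 and RpS16 5. The share of hosts among all protein-coding genes is not given here, so neither count is read as high or low.

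Motifs in the promoters were counted as reference letters in 250 bp before to 50 bp after the main start, on both strands unless stated, and a match is a description. At RpS16 the main start is the outer one, at 22605745, so its window does not hold the peak summit at 22606086. It is still counted with the 15 genes with a peak, among them the 6 with a DRE. A DRE lay in 13 of 38 small subunit promoters (34.2%), 6 of 15 with a peak and 7 of 23 without, beside 27.8% of large subunit promoters and 9.23% of all promoters. The core of Motif 1, the site of M1BP (letters GGTCACAC), lay in 4 (10.5%), 1 of 15 with a peak (RpS23) and 3 of 23 without, beside 7.77% of all. The E-box CACGTG lay in 0 of 38, beside 18.5% of large subunit promoters and 4.20% of all. Within 100 bp on each side of the start it lay in 1 of 38 (2.63%), beside 27.8% and 2.81%. GAGAGA lay in RpS4 alone, beside 12.7% of all. TATAAA on the gene's strand lay in 34.2% of member promoters and 32.1% of all, but within 100 bp on each side of the start in 7.89% and 20.7%, which turns the direction. Runs of 8 adenines lay in 21.1% of member promoters and 15.8% of all.

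Homeodomain proteins commonly bind a TAAT core, so TAATTA and TAATTG, which share their first 5 letters, were searched as well. TAATTA lay in 11 of 38 promoters (28.9%), 2 of 15 with a peak and 9 of 23 without, beside 20.1% of all promoters. TAATTG lay in 9 (23.7%), 7 of 15 with a peak (RpS16 among them) and 2 of 23 without, beside 25.0%. Within 50 bp of the summit, TAATTA lay in 0 of 15 member peaks, 1 of 35 large subunit peaks (2.86%) and 11.5% of promoter peaks. TAATTG lay in 1 of 15 member peaks (RpS7), 0 of 35 large subunit peaks and 10.9% of promoter peaks. With 15 peaks, counts of 0 and 1 are too few to set apart from shares of 11.5% and 10.9%. Member summits were also richer in G and C (median 51.5%, promoter peaks 30.7%), while the letters searched are mostly A and T. The part of base composition was not tested, and the counts say nothing about whether Apterous was bound there.

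**Figure D5:**
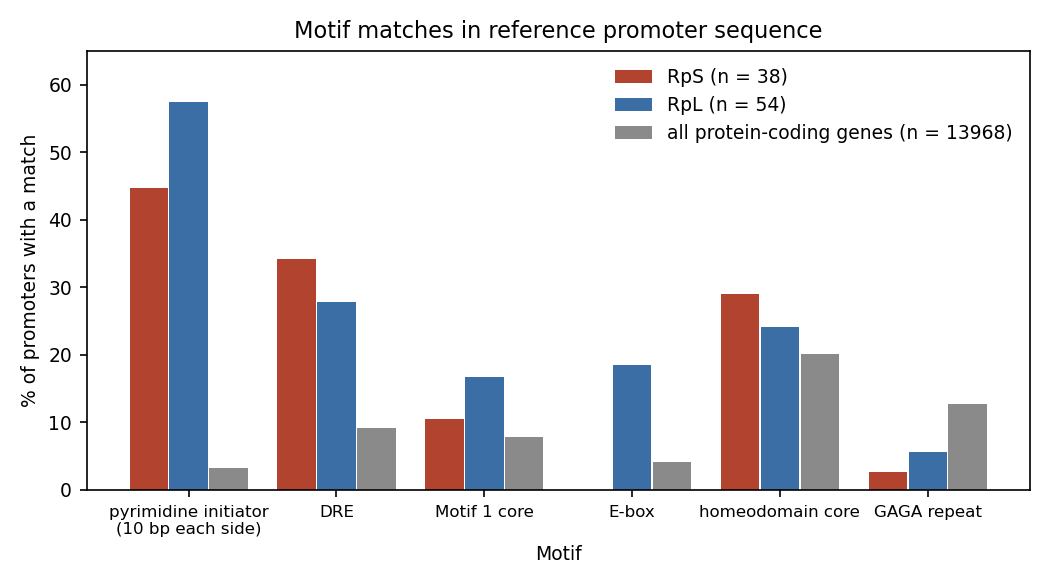
Share of promoters with at least 1 match (y axis, percent) for 6 motifs (x axis) in small subunit, large subunit and all protein-coding genes; the pyrimidine initiator was searched within 10 bp of the main start and the others from 250 bp before to 50 bp after it. The initiator and the DRE stand at 44.7% and 34.2% in small subunit genes, beside 3.19% and 9.23% in all genes.

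Other genes of the translation machinery place these values. Large subunit genes had a conservative peak in 33 of 54 (61.1%), led by RpL7 (pooled signal 307), RpL32 (270), RpL14 (221) and RpL41 (211). Genes of the mitochondrial ribosome had a nearest peak in 1 of 26 for its small subunit (3.85%), at mRpS6 (176), and 3 of 47 for its large subunit (6.38%), at mRpL41 (1293), mRpL23 (796) and mRpL40 (120, with the summit 14930 bp away). By a summit within 500 bp, whichever gene was nearest, 5 of 26 mitochondrial small subunit genes had a peak (19.2%), beside 11.8% of all genes, so this list was below all genes by the first rule and above them by the second. Partners of the small subunit and initiation factors had 3 of 25 (12%, and 16% by a summit within 500 bp), eIF5B (179), eIF3h (144) and eIF3c (104). Among them, Rack1 and sta, which encode further proteins of the small subunit, were nearest to no conservative peak. Assembly factors had 3 of 12 (25.0%), l(3)72Dn (235), NHP2 (132) and RIOK1 (82.1). Elongation factors had 3 of 7 (42.9%), eEF1gamma (598, with the summit 5721 bp away), eEF1alpha1 (126) and eEF5 (115). The lists differ in the stretch of genome nearest to their genes, and no test between them was made.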

How the data were processed

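Chromatin of whole embryos was sonicated to fragments of 200 to 800 bp and immunoprecipitated against GFP in 2 biological replicates of 1 group, per the labels. ENCODE's processing gave 8 deposited peak lists on dm6, per the labels, including 2 pooled ranked lists whose roles are not stated. The one that holds the conservative peaks was used here, and pooled signals and IDRs of genes without a peak rest on that choice. Names of an aligner or caller were not given in the sources used here, nor was the method of pooling. The signal per peak is the authors' deposited value, in arbitrary units. The deposited score is a scaled form of the IDR, and the deposited −log10 column of the ranked list gave the IDR itself. No read totals are given, so no interval from depth can be had.

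Peaks outside the 7 assembled chromosome arms (17 in the conservative list, leaving 3184) were left out. Starts came from Ensembl's BDGP6 annotation and letters from RefSeq's release 6 genome. Peaks were matched between lists by an overlap of at least 1 bp, and coding identity came from global alignment. Every member was counted and is named, except a few that are not reported here by name, with up to 4 genes of highest signal from each comparison list and genes starting within 500 bp of a named member. The members and lists were chosen with earlier results of these data known, and no test was made: 1 group with 2 samples allows none. The assignment of peaks to starts, the side of the start and the matching of replicate peaks were tested on simulated peaks. The motif search, base composition and alignments were not. Python 3.11.15, numpy 2.4.6, pandas 2.3.3, matplotlib 3.10.9 and Biopython 1.88 were used.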

Additional observations from a re-analysis of the deposited data

How the results depend on the processing

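The number of small subunit genes with a peak was 15 and lay between 11 (peaks in both replicates' own lists) and 19 (any summit within 2000 bp of the start) over the 9 alternatives tried. The upper 50% of the conservative list by signal gave 12. Large subunit genes gave 33 and lay between 22 and 34. The share of all protein-coding genes is not given here for peaks in both own lists, the upper 50% or the 2000 bp window. The counts under these settings thus have no background beside them. The median summit distance of 23 bp was 20.5 bp without replicate 2 and 34 bp without replicate 1, and 32 bp in the less strict list. The number of summits upstream of the start was 11, with 15 genes having a peak, and 8 to 11 over the alternatives. The 8 came without replicate 2, where 12 genes had a peak, and 1 start site a gene gave 9 with 15 genes. The median pooled signal of 131 was the same in the less strict list. The median log2 ratio between replicates was 0.40, and 0.37 relative to all peaks. Counts of promoters with a motif moved with the window: within 100 bp on each side of the start, TAATTA fell to 4 promoters, against 11 in the wider window, TATAAA to 3, against 13, and the DRE gave 13 in both. Beside all genes, the share of TATAAA turned from above to below with that window (7.89% of members, 20.7% of all). With a summit within 500 bp in place of the nearest gene, the mitochondrial small subunit genes (19.2%) and the partners and initiation factors (16%) turned from below to above all genes (11.8%). No paired analysis was possible because the samples form 1 group. A control, read totals and further replicates would be needed to test any of these values, and positions are limited by peaks of mostly 296 bp.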
